A study of Homo sapiens with 8 samples.

Results

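Gene expression was compared between A2780 cells given temsirolimus for 48 h and A2780 cells given it for 24 h, on 4 of the 8 arrays of the series, chosen by their titles (2 titled 48 h and 2 titled 24 h). A2780 is an established human ovarian carcinoma cell line. The other 4 arrays held untreated A2780 (2 arrays) and untreated A2780CP20, a subline of A2780 known for cisplatin resistance (2 arrays). All cells were grown in RPMI medium with 10% fetal bovine serum, temsirolimus came from a stock in DMSO, and no dose, vehicle control or untreated culture matched to 24 h or 48 h is described in the sources used here. Each array was an Affymetrix Human Gene 1.0 ST chip hybridised with labelled cDNA from 1 total RNA sample. Nothing in the labels says that the 2 arrays of a group came from separate cultures, so the spread behind every p-value here is that between these RNA samples and may be technical. In bulk RNA, fewer cells that express a gene and less of its RNA per cell cannot be told apart.

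Temsirolimus is a rapamycin ester. It binds the protein FKBP12, encoded by FKBP1A, and the complex inhibits mTORC1, a kinase complex that senses growth factors and amino acids and drives ribosome production, protein synthesis and entry into the cell cycle. mTORC2, which contains the subunit encoded by RICTOR in place of that encoded by RPTOR, is less sensitive to the drug. Cells held under mTORC1 inhibition are known to lower growth and biosynthesis and to restore signals upstream of the kinase.

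The arrays labelled 24 h stood apart from all others. Across genes, they correlated with the other 6 arrays at 0.950 to 0.952, against 0.997 with each other, and the 48 h arrays correlated at 0.994 to 0.996 with those of untreated A2780. Array medians lay between 7.28 and 7.33 log2 units. With the same fit, 33 genes (0.179%) were called between 48 h and untreated A2780, and 5551 (30.1%) between 24 h and untreated A2780. Those comparisons share arrays with the one described here, so the untreated levels are given beside it only as values. The time on drug cannot be told apart from any other difference between the cultures labelled 24 h and 48 h. Markers of blood and vessel cells did not reach high levels. No member of the leukocyte (17 measured), endothelial (12) or erythroid (6) lists had a group mean above the highest upper quartile of an array at 24 h or 48 h. Below the lowest lower quartile lay 8, 8 and 2 of them at 24 h, and 10, 8 and 3 at 48 h. The leukocyte marker CD68 was called higher (7.35 on average at 24 h, 8.04 at 48 h), 1 other was called lower and 15 were not called. Of 12 fibroblast markers, 6 lay above the highest upper quartile at 48 h and in untreated A2780 and 2 at 24 h, as described with the matrix genes. Of 17 markers of ovarian carcinoma, 1 lay above that level at 24 h and none at 48 h or in untreated A2780, and the lineage markers PAX8, WT1 and MUC16 were among the 13 members not called between 48 h and 24 h; 4 were called lower, and 2 without replicate 2 of 24 h or of 48 h.

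Genes with an adjusted p under 0.05 in limma are termed called. Of 18417 genes, 5702 (31.0%) were called between 48 h and 24 h, 2804 (15.2%) higher and 2898 (15.7%) lower at 48 h. Most of these differences were small: 4508 of the called genes (79.1%) differed by less than 2-fold, and the median absolute difference of called genes was 0.60 on the log2 scale. At least 2-fold differences were called for 1194 genes (6.48%), 668 higher (3.63%) and 526 lower (2.86%). At least 8-fold differences were called for 174 (0.945%), 95 higher (0.516%) and 79 lower (0.429%), and at least 32-fold for 34 (0.185%), 16 higher (0.0869%) and 18 lower. The log2 differences between 48 h and 24 h had an SD of 0.657 over genes, against 0.169 between the 2 arrays at 24 h and 0.166 between the 2 arrays at 48 h. The median difference of all genes was -0.05. The total number called was 3768 without replicate 1 of 24 h and 3715 without replicate 2 of 48 h, while the number at least 2-fold apart stayed between 1185 and 1221 whichever array was left out.

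**Figure D1:**
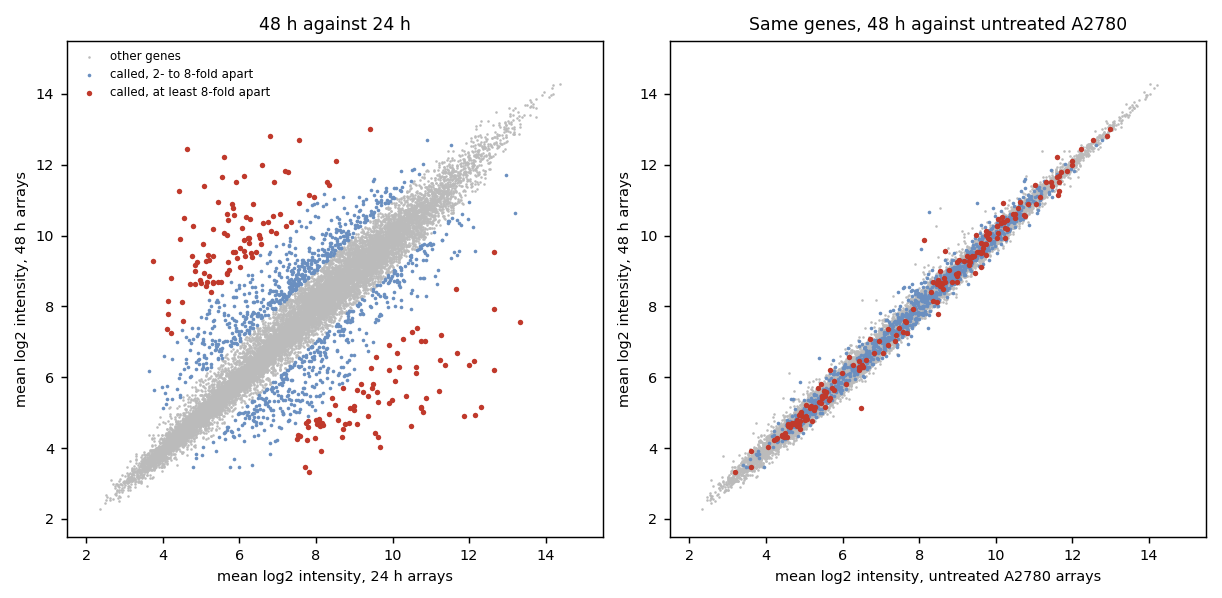
Mean log2 intensity of the 18417 genes less Y-linked genes and XIST, at 48 h against 24 h on the left and against untreated A2780 on the right. Colours show genes called between 48 h and 24 h, blue for 2- to 8-fold and red for at least 8-fold, with all others grey. On the left the genes at least 8-fold apart lie far from the diagonal on both sides. On the right most of the same genes lie close to it, with NOG above it, and the 48 h arrays are used in both plots.

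Many of the largest differences were between a level near the bottom of the array and a high one. Of the 95 genes at least 8-fold higher at 48 h, 41 lay below 5.65 at 24 h, the lowest lower quartile of any array, and of the 79 at least 8-fold lower, 51 lay below it at 48 h. Signal over background is not known there, and such differences may be larger in the cells than on the arrays. Changes are log2 differences of group means, 48 h minus 24 h, ± the standard error of the fit (n = 2 arrays per group).

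Among the genes higher at 48 h, secreted signals and matrix proteins led. DKK1, which encodes a secreted antagonist of WNT receptors, read 4.42 and 4.87 on the 24 h arrays and 12.46 and 12.44 on the 48 h arrays, a difference of 7.80 ± 0.14 (adjusted p = 8.33e-09). Untreated A2780 read 12.16 and 12.31 for it. CYP1B1, a cytochrome P450 that oxidises steroids and aromatic hydrocarbons, read 6.76 and 6.84 at 24 h and 12.80 and 12.85 at 48 h (6.03 ± 0.09). In both genes the 48 h arrays lay beside the untreated ones and the 24 h arrays alone were low.

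SNAI2, a zinc finger repressor of epithelial genes, read 5.39 and 5.83 at 24 h against 12.14 and 12.27 at 48 h (6.59 ± 0.16). OSTN, a small secreted peptide of bone and muscle, read 4.28 and 4.58 against 11.25 on each 48 h array. NDST4, a heparan sulfate N-deacetylase and sulfotransferase, was at 3.65 and 3.84 against 9.19 and 9.35 (5.53 ± 0.18). For all 3 the levels of the 24 h arrays were below the lower quartile of the array or close to it. GPRIN3, CBLN2 (a synaptic organiser), CDH10 (a neural cadherin), PCDH20 (a protocadherin) and MEST (an imprinted gene expressed from the paternal copy) completed the 15 largest with the matrix genes described below, with differences from 5.13 to 5.94.

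Of the genes lower at 48 h, MUC15, a membrane mucin, read 12.18 and 12.13 at 24 h and 4.97 and 4.91 at 48 h (-7.21 ± 0.09, adjusted p = 2.40e-09). MID1, a microtubule-bound ubiquitin ligase whose substrates include the catalytic subunit of protein phosphatase 2A, read 11.85 and 11.87 against 4.96 and 4.85 (-6.96 ± 0.13). ATP1B1, the beta subunit of the sodium pump, read 12.70 and 12.62 against 6.13 and 6.27 (-6.46 ± 0.11). In each the 24 h arrays alone were high, since untreated A2780 read 4.86 and 4.85 for MUC15, 4.91 and 4.95 for MID1 and 5.65 and 5.71 for ATP1B1.

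ANKRD1, a nuclear ankyrin repeat protein of muscle and a known target of YAP and TEAD, read 13.32 and 13.34 at 24 h and 7.61 and 7.49 at 48 h (-5.78 ± 0.11). VGLL3, a cofactor of TEAD factors, read 12.12 on each 24 h array and 6.42 and 6.48 at 48 h (-5.67 ± 0.09). Neither gene was at the bottom of the array at 48 h. The phosphatase and transcriptional cofactor gene EYA4, the homeobox gene ISL1, the sodium channel gene SCN9A, the caveola gene CAVIN2, ARHGAP28, PSD3 and MLIP had differences between -5.85 and -5.29. None of these 30 genes overlapped between the groups, which the choice of the 30 required; over all genes the arrays of the groups did not overlap for 12769 (69.3%).

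**Figure D2:**
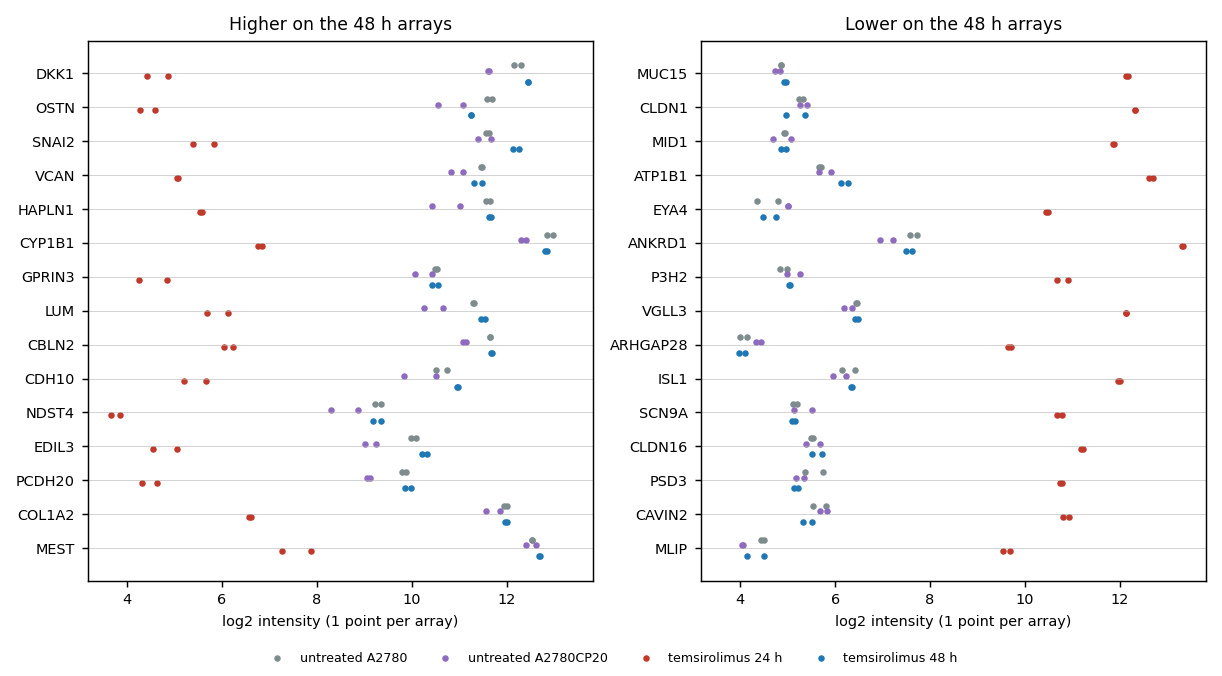
Log2 intensity on every array (1 point per array, 2 per group) for the 15 genes with the largest called differences in each direction. On every line the 24 h points (red) lie on 1 side and the other 6 points together on the other, as for DKK1 (4.42 and 4.87 against 12.44 and 12.46 at 48 h).

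Some of the genes that differed strongly lay side by side on the chromosome, and whether more did so than by chance was not tested. With the genes placed in chromosomal order (17998 genes), 385 (2.14%) were called and at least 4-fold apart, and 81 of these (0.45% of the genes in order) formed 33 runs of direct neighbours that differed in 1 direction, 17 higher and 16 lower at 48 h. Of the runs, 23 held 2 genes, 10 held 3 or more, and the longest held 5. Members of a run can share regulation, so they are not independent observations.

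On chromosome 3, P3H2 (a collagen prolyl hydroxylase), CLDN16 and CLDN1 (tight junction claudins), TMEM207 and IL1RAP (the interleukin 1 receptor accessory protein) followed each other and were all lower at 48 h, by -5.75, -5.58, -7.16, -2.48 and -3.69. CLDN1 read 12.32 on each 24 h array and 5.36 and 4.96 at 48 h. The next gene in order was OSTN, higher at 48 h by 6.82 ± 0.17, followed by UTS2B, a urotensin peptide gene (2.61 ± 0.50), and CCDC50 (1.57 ± 0.09). The direction thus reversed between direct neighbours: IL1RAP read 10.74 and 10.71 at 24 h and 7.02 and 7.04 at 48 h, where OSTN read 4.28 and 4.58 and then 11.25.

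On chromosome 5, VCAN, HAPLN1 and EDIL3 formed a run of 3 higher at 48 h. VCAN encodes versican, a large hyaluronan-binding proteoglycan, and read 5.06 and 5.08 at 24 h and 11.32 and 11.49 at 48 h (6.33 ± 0.11). HAPLN1, the link protein that fixes such proteoglycans to hyaluronan, read 5.58 and 5.54 against 11.63 and 11.67 (6.09 ± 0.17), and EDIL3, an integrin ligand, 4.54 and 5.05 against 10.22 and 10.32 (5.47 ± 0.16). The neighbours on either side differed far less, XRCC4 by -0.20 ± 0.11 and NBPF22P by -0.02 ± 0.18, and neither was called.

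The keratocan and decorin cluster of chromosome 12, which encodes small leucine-rich proteoglycans that bind collagen fibrils, was higher at 48 h throughout. EPYC was higher by 2.52 ± 0.23, KERA by 3.21 ± 0.16, LUM by 5.59 ± 0.17 and DCN by 3.30 ± 0.08, and the antiproliferative gene BTG1 beside them by 2.46 ± 0.09. LUM read 6.13 and 5.68 at 24 h and 11.45 and 11.55 at 48 h, and DCN read 7.85 and 7.81 against 11.16 and 11.10. CCER1 and CLLU1-AS1, the genes flanking the run, were not called (-0.07 ± 0.14 and -0.12 ± 0.12).

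The matrix metalloproteinase cluster of chromosome 11 went the other way. MMP10, MMP1 (interstitial collagenase), MMP3 (stromelysin) and MMP12 were lower at 48 h by -2.16, -3.00, -4.72 and -2.42. MMP3 read 12.64 on each 24 h array and 7.98 and 7.86 at 48 h, and MMP1 read 9.55 and 9.61 against 6.60 and 6.56. MMP8 and MMP13, the genes on either side in the same cluster, were not called (-0.56 ± 0.27 and -0.25 ± 0.10) and lay below 5.65 in both groups. A further gene of the family, MMP7, was called lower by -0.29 ± 0.09, also below 5.65 in both groups.

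**Figure D3:**
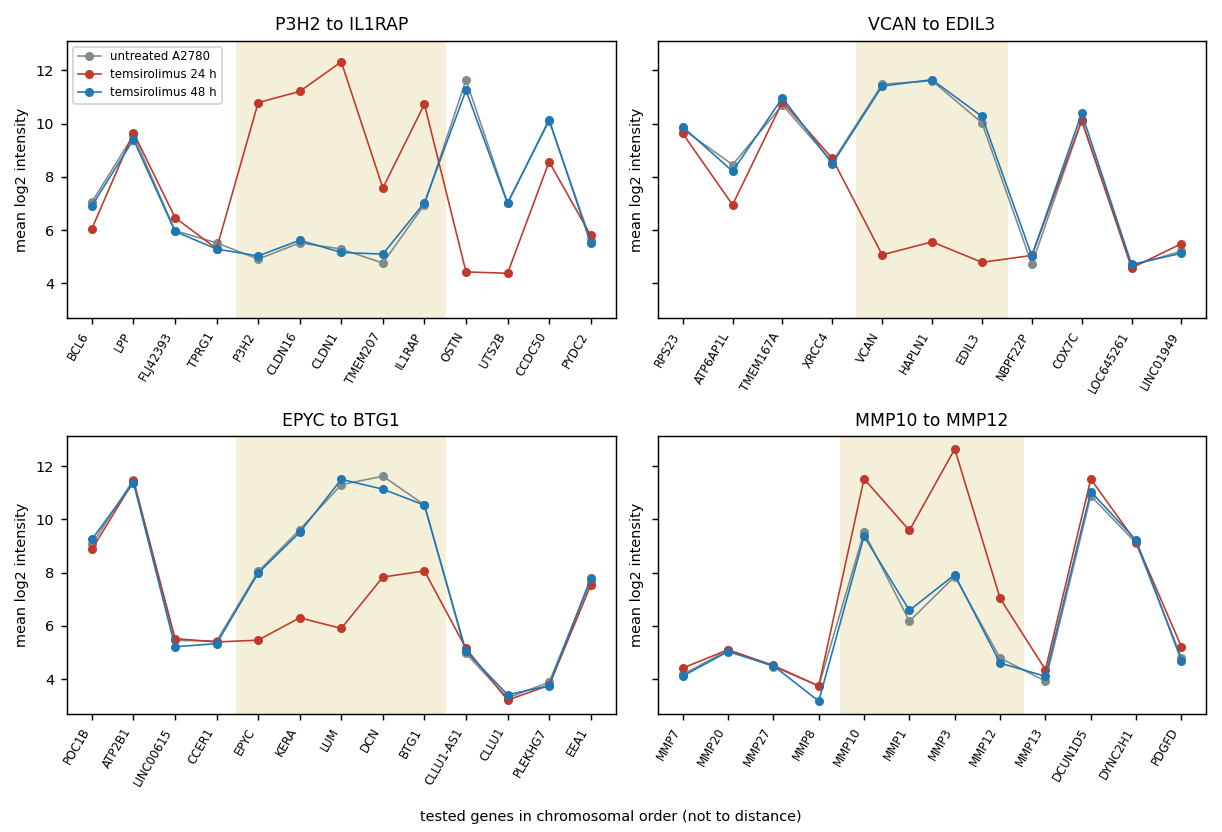
Mean log2 intensity of neighbouring genes in chromosomal order (equal steps, not distance) in untreated A2780, at 24 h and at 48 h, for 4 regions, with the run of called neighbours shaded. The 24 h line (red) leaves the other 2 inside the shaded runs, above them for P3H2 to IL1RAP and MMP10 to MMP12 and below them for VCAN to EDIL3 and EPYC to BTG1, and it crosses them between IL1RAP and OSTN.

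Other runs held the posterior homeobox genes HOXC13, HOXC12 and HOXC11 (higher by 2.67, 2.85 and 4.33) and the homeobox genes DLX1 and DLX2 (2.94 and 2.38). The tryptophan-degrading dioxygenases IDO1 and IDO2 formed a run with TCIM (higher by 3.61, 4.58 and 3.54). A further run held the aldo-keto reductases AKR1C1, AKR1C2 and AKR1C3 (higher by 3.15, 2.54 and 4.72), whose near-identical sequences make their separate values uncertain. Lower at 48 h were the potassium channel genes KCNJ16 and KCNJ2 (-3.81 and -3.82), the sodium channel genes SCN1A and SCN9A (-3.27 and -5.61), the tetraspanin-like genes TM4SF18 and TM4SF1 (-3.25 and -4.63), the pair ALDH1A1 and ANXA1 (-3.01 and -4.38), and ANO3 beside MUC15 (-4.63 and -7.21). Several runs were thus of 1 gene family and others joined unrelated genes.

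Promoter sequences were set beside these differences because VGLL3, a TEAD cofactor, the TEAD target ANKRD1, the AP-1 subunit gene JUN and the E-box binding repressor gene SNAI2 were among the genes that differed. The windows were RefSeq promoters of build GRCh38.p14, from 250 bases before the start to 50 after it, and 14239 genes of the array had 1. GGAATG, the core of TEAD sites, stood on either strand in 16 of 64 promoters of genes at least 8-fold lower at 48 h, in 5 of 66 of genes at least 8-fold higher and in 1655 of all 14239 (11.6%). TGANTCA, the AP-1 site, stood in 9.38%, 7.58% and 5.58%, and CAGGTG, the E-box bound by SNAI and ZEB repressors, in 17.2%, 13.6% and 19.6%. Each motif was searched separately, and a match is a description of letters and no evidence of binding. The median GC content was 60.7% in each of the 2 sets and 63.0% over all promoters.

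The 250 bases before the start follow for 4 genes lower at 48 h that hold the TEAD letters and for DKK1, which holds them although it was higher. They also follow for MMP10 of the metalloproteinase cluster, which holds the AP-1 letters. MMP10 differed by -2.16 and so was not in the set at least 8-fold lower. No promoter was available for MMP1, MMP3 and MMP12 of its run. Capitals mark GGAATG or its reverse complement CATTCC in the first 5, and TGANTCA in MMP10. Each is printed 5′ to 3′ on the gene's strand. The coordinates, on GRCh38.p14, are chr10:90921088-90921337 (minus strand) for ANKRD1, chr3:149377650-149377899 (minus) for TM4SF1, chr2:191847089-191847338 (minus) for CAVIN2, chr6:54018720-54018969 (plus) for MLIP, chr10:52314031-52314280 (plus) for DKK1 and chr11:102780629-102780878 (minus) for MMP10.
ANKRD1: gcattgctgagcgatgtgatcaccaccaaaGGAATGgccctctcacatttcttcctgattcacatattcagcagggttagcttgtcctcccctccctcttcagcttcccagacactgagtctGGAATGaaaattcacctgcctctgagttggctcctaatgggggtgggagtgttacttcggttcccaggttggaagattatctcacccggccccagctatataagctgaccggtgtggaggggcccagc
TM4SF1: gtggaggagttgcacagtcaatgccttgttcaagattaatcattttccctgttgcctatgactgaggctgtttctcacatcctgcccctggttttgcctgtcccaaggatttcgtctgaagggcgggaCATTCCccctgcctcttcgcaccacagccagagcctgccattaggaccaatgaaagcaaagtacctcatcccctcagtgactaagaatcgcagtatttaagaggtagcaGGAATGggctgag
CAVIN2: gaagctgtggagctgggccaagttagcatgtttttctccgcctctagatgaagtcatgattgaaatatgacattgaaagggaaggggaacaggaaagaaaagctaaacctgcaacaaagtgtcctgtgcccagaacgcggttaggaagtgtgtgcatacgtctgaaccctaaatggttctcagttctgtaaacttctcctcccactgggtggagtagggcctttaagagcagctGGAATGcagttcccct
MLIP: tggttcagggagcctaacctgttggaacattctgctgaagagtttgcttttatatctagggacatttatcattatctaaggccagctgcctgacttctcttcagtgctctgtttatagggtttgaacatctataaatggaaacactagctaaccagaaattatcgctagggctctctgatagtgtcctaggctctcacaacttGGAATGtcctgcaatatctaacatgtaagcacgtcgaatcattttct
DKK1: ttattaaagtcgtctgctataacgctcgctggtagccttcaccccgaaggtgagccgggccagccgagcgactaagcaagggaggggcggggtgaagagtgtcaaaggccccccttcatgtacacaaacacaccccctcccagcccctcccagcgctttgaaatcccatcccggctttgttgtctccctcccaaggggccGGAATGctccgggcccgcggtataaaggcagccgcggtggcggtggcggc
MMP10: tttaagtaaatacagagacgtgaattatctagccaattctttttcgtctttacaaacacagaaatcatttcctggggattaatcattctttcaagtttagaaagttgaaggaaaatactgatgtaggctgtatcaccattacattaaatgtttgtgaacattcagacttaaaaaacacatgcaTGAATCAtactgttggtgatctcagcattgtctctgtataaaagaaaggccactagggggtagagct
ANKRD1 and TM4SF1 each hold the TEAD letters in 2 places. The ANKRD1 sequence also holds the AP-1 letters and the E-box letters, which are not marked. In CAVIN2 they begin 16 bases before the start, in MLIP 47 and in DKK1 50, and in MMP10 the AP-1 letters begin 67 bases before it.

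Genes of chromosome 13 were higher at 48 h as a group. Among genes at or above the median mean intensity (9102 genes, called expressed here), 43.7% were called, 23.9% higher and 19.8% lower. Of the 156 expressed genes of chromosome 13, 86 were called higher (55.1%) and 20 lower (12.8%), and 113 (72.4%) were above 0, against 51.0% of all expressed genes. Their median difference lay 0.452 above that of all expressed genes. The next largest departures were 0.18 on chromosome 18 and 0.09 on chromosomes 17 and 9 (-0.09 on the latter), and between the 2 arrays of a group the departure of chromosome 13 was 0.045 at 48 h and -0.005 at 24 h. Between 48 h and untreated A2780 it was 0.0025. These are descriptions with no test, and the comparison of 24 h with untreated A2780 uses the same 24 h arrays.

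Along the chromosome the difference was not even. In windows of 20 neighbouring expressed genes, the first window, BAGE5 to CPAP, had a median of -0.10 and the lowest, MICU2 to SLC7A1, had -0.34. From MTRF1 to ITM2B the median was 0.47, from EBPL to PCDH20 it was 0.75, and from MIR17HG to TPP2 it reached 1.01, where 20 of 20 genes were above 0 and 19 were called. The last windows stayed high, with 0.64 from GGACT to DCUN1D2. Over 8665 windows of the genome, those on other chromosomes lay between -0.43 and 0.66.

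Single genes of chromosome 13 varied around these medians, and the following were chosen after their values were seen. ITM2B, a membrane protein linked to familial dementia, read 6.63 on average at 24 h and 10.35 at 48 h (3.72 ± 0.13), and MIR17HG, the host transcript of the miR-17 cluster, 6.95 and 9.08 (2.13 ± 0.12). The glypican genes GPC5 and GPC6, which follow MIR17HG, were higher by 3.27 ± 0.10 and 2.62 ± 0.12. SPRY2, a feedback inhibitor of receptor tyrosine kinase signalling, lay inside the high stretch and was lower at 48 h by -2.10 ± 0.09. In the proximal stretch TNFRSF19 (-4.31 ± 0.11), POSTN (-2.59 ± 0.14) and TRPC4 (-4.18 ± 0.11) were lower. RB1, the retinoblastoma gene, followed ITM2B among the expressed genes and was not called (0.27 ± 0.44).

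**Figure D4:**
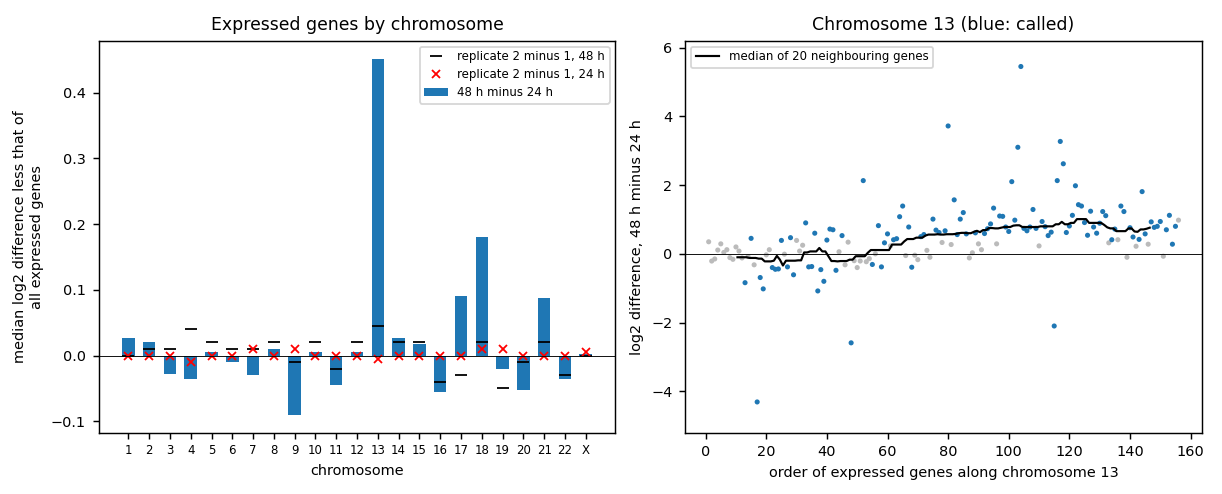
Left, the median log2 difference of expressed genes of each chromosome less that of all expressed genes, for 48 h minus 24 h (bars) and between the replicates of each group (marks); right, the difference of each of the 156 expressed genes of chromosome 13 in order, with the running median of 20 genes. Chromosome 13 stands at 0.452, and the running median rises from about the level of other chromosomes to 1.01 towards the distal end.

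Gene lists were described by how many members were called, beside 15.2% higher and 15.7% lower among all genes and 23.9% and 19.8% among expressed genes, because lists of well-expressed genes hold more calls. The lists were assembled with earlier results of these data known.

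Genes of epithelial junctions that were called were more often lower than higher at 48 h, though most were not called. Of 22 genes of epithelial adhesion and desmosomes, 10 were lower, 1 was higher and 11 were not called, with a median difference of -0.24. CXADR, a junction protein and virus receptor, read 10.16 and 10.19 at 24 h and 6.21 and 6.37 at 48 h (-3.88 ± 0.10). The adhesion molecule gene EPCAM was lower by -2.21 ± 0.11 and the desmosomal cadherin gene DSG2 by -2.20 ± 0.14. PERP, a desmosome-associated membrane protein that p53 induces, was the member higher at 48 h (2.65 ± 0.15). E-cadherin, encoded by CDH1, was among those not called.

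Of 21 claudin genes, CLDN1, CLDN16 and CLDN2 were called, all lower, and 18 were not. Without either A2780CP20 array 4 claudins were lower and 1 higher, and the lower share in the full fit was close to that over all genes. Tight junction partners had 4 lower and 2 higher of 13, with cingulin-like CGNL1 at -2.52 ± 0.09, the scaffold gene PATJ at -1.26 ± 0.09 and cingulin, CGN, at -1.01 ± 0.10. Of 19 keratin and mucin genes, 4 were lower and none higher, among them MUC15 and KRT18 (-3.25 ± 0.21, uncertain because of its many pseudogenes); without either 48 h array 2 were called, and without replicate 2 of 24 h 2 were lower and 1 higher.

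Mesenchymal and contractile genes had 9 higher, 3 lower and 5 not called of 17, with a median of 0.34. FAP, a membrane protease of activated fibroblasts, was higher by 2.85 ± 0.13, S100A4 by 2.40 ± 0.17 and N-cadherin, CDH2, by 1.52 ± 0.12. CDH2 read 8.86 and 8.95 at 24 h and 10.39 and 10.46 at 48 h. The smooth muscle gene TAGLN was lower (-1.47 ± 0.10), and VIM, which encodes vimentin, was not called. Of 14 transcription factors of epithelial to mesenchymal transition, 5 were higher and 2 lower, with TWIST1 at 1.59 ± 0.09, TWIST2 at 0.80 ± 0.14 and ZEB1 at 0.78 ± 0.14 after SNAI2. That count of 7 called was 4 without replicate 1 of either time, with none lower.

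Matrix genes that were called went in both directions. Collagen genes were called at about the rate over all genes (32.4% against 31.0%). Of 32 genes of proteoglycans and hyaluronan partners, 11 were higher and 3 lower, led by VCAN, HAPLN1, LUM and DCN. Of 37 collagen genes, 5 were higher, 7 lower and 25 not called, with a median of -0.20; the lower ones were 4 without replicate 1 of 24 h and 13 without either A2780CP20 array, and the higher ones 3 without replicate 1 of 48 h. COL1A2, a chain of fibrillar type I collagen, read 6.61 and 6.57 at 24 h and 11.96 and 12.00 at 48 h (5.39 ± 0.11), and COL3A1, type III collagen, 8.44 and 8.61 against 12.12 and 12.11 (3.59 ± 0.11). The fibrillar collagen COL11A1 was lower by -2.38 ± 0.10, and COL1A1, the partner chain of COL1A2, was not called.

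Among 31 glycoprotein and laminin genes, 9 were higher and 6 lower: the collagen cross-linking enzyme LOX was higher by 4.17 ± 0.21, while the fibrillin gene FBN1 (-2.65 ± 0.09), POSTN (-2.59 ± 0.14) and LAMA2 (-2.20 ± 0.11) were lower. Of 25 proteases and inhibitors, 5 were higher (3 without replicate 2 of 48 h) and 7 lower, and the inhibitor TIMP1 was among the lower ones (-2.57 ± 0.12). Genes that mark fibroblasts moved with these lists. Of 12 fibroblast markers, 8 were higher and 1, POSTN, lower, and their mean log2 level was 8.81 to 8.83 at 48 h, 7.17 to 7.22 at 24 h and 8.84 to 8.85 in untreated A2780. Below the lowest lower quartile lay 1 of the 12 at 24 h and none at 48 h. The list shares COL1A2, COL3A1, LUM and DCN with the matrix lists, and its part in the differences was not tested.

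Receptor and SMAD genes of the TGF-beta and BMP family were higher or not called. Ligand genes were called higher at about the rate of expressed genes, and none was called lower in the full fit. Counting both directions, the share of ligands called was below that of expressed genes (43.7%). These ligands bind paired receptor kinases that phosphorylate SMAD proteins, and the BMP branch switches on the ID genes, whose products block basic helix-loop-helix factors. Of 18 receptors and SMADs, 10 were higher and none lower, with a median of 0.43. BMPR2, a BMP receptor, read 8.75 and 8.69 at 24 h and 10.68 and 10.85 at 48 h (2.04 ± 0.24), TGFBR1 9.59 and 9.60 against 11.15 and 11.35 (1.66 ± 0.11), and ACVR2B 6.52 and 6.48 against 7.85 and 7.75 (1.30 ± 0.15). Of 20 ligands, 5 were higher, beside 23.9% of expressed genes, and none lower, including BMP5 (3.85 ± 0.14), TGFB2 (2.66 ± 0.28) and BMP6 (0.88 ± 0.09). Without either A2780CP20 array 7 ligands were higher and 2 lower.

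Of 14 antagonists and targets, 3 were higher and 1 lower between 48 h and 24 h; the lower one was not called without any 1 of the 4 temsirolimus arrays, and 2 were lower without either A2780CP20 array. NOG, which encodes the BMP-binding protein noggin, read 8.15 and 8.08 in untreated A2780, 6.43 and 5.81 at 24 h and 9.89 and 9.86 at 48 h, a difference of 3.75 ± 0.17 between the times. ID2 read 8.22 and 8.28 untreated, 9.5 and 9.52 at 24 h and 10.62 and 10.72 at 48 h (1.16 ± 0.09, adjusted p = 2.03e-05). HEY1, a transcriptional repressor and a target of Notch and BMP signalling, read 8.43 and 8.45, then 9.48 and 9.52, then 10.28 and 10.25 (0.77 ± 0.08). ID2 and HEY1 thus stood in the order untreated A2780, 24 h, 48 h with no overlap of arrays, while NOG was lowest at 24 h. Untreated A2780CP20 read 9.49 and 9.46 for ID2 and 8.7 and 8.65 for HEY1, above untreated A2780 in both. Between 24 h and 48 h alone, arrays did not overlap for 69.3% of all genes. Of the 14 antagonists and targets 28.6% were called, below the share over all genes (31.0%).

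ID1 and ID3 did not follow ID2 between the times. ID1 read 8.57 and 8.53 untreated, 10.61 and 10.62 at 24 h and 10.82 and 10.75 at 48 h, and the difference between the times, 0.17 ± 0.09, was not called (adjusted p = 0.178). ID3 differed by 0.20 ± 0.09 (adjusted p = 0.123). SMAD9, a SMAD of the BMP branch, read 7.94 and 7.84 untreated, 9.25 and 9.03 at 24 h and 9.22 and 9.18 at 48 h, and GLRX, a glutaredoxin, 6.16 and 6.85, then 8.12 and 8.11, then 8.14 and 8.21. For these last 4 genes the 24 h and 48 h arrays lay together above those of untreated A2780, unlike the genes with the largest differences. Untreated A2780CP20 read 9.49 and 9.55 for ID1, between untreated A2780 and the 24 h arrays.

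In WNT signalling, antagonists were higher or not called: of 18, 7 were higher and none lower, and 4 were called without replicate 2 of 24 h or without replicate 1 of 48 h. WIF1, which binds WNT ligands, read 5.91 and 6.06 at 24 h and 8.55 and 8.64 at 48 h (2.61 ± 0.11), and SFRP1, a frizzled-related decoy, was higher by 2.44 ± 0.14. The frizzled receptors were split: FZD8 (1.90 ± 0.15), FZD7 (1.67 ± 0.09) and FZD2 (1.14 ± 0.11) were higher and FZD6 was lower (-3.04 ± 0.17). Of 32 ligands and receptors, 6 were higher and 4 lower, a total that was 6 without replicate 2 of 48 h, and the lower ones were 2 without that array or replicate 1 of 24 h. The share of ligands and receptors called in the full fit, 31.2%, was close to that over all genes (31.0%). LGR5, a WNT target and R-spondin receptor, was higher by 2.19 ± 0.25 and TNFRSF19, also a WNT target, lower.

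Receptor tyrosine kinase genes had 12 higher and 3 lower of 26. The neuregulin receptor ERBB4 read 6.57 and 6.31 at 24 h and 9.44 and 9.64 at 48 h (3.10 ± 0.14), the collagen receptor DDR2 was higher by 1.60 ± 0.11 and AXL by 1.51 ± 0.09. DDR1, the other collagen receptor of that pair, was lower by -1.60 ± 0.12. Ephrin receptors EPHA3 (4.71 ± 0.11) and EPHA7 (4.11 ± 0.17) were higher and EPHA5 lower (-1.56 ± 0.11). Of 25 feedback and early response genes of the MAPK pathway, 7 were called each way: SPRY4 was higher by 2.96 ± 0.18 and ETV1 by 2.95 ± 0.20, whereas JUN (-2.23 ± 0.10) and SPRY2 were lower. The lower ones were 3 without replicate 1 of 24 h or replicate 2 of 48 h and 4 without replicate 1 of 48 h, and the total of 14 was 9 without replicate 2 of 48 h.

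Targets and cofactors of YAP and TEAD did not move as a group. Of 25, 9 were higher, 6 lower and 10 not called. ANKRD1 and VGLL3 were the strongest, both lower, while AXL, TGFB2 and YAP1 itself (0.95) were higher, and CCN1, an often used target, was not called.

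Called genes of neural adhesion and axon guidance were more often higher than lower. Of 29 protocadherin and neural adhesion genes, 11 were higher and 1 lower, with none lower without replicate 1 of 24 h or replicate 2 of 48 h and 2 without replicate 2 of 24 h. The higher ones included CDH10 (5.54 ± 0.22), PCDH20 (5.45 ± 0.12), PCDH7 (4.46 ± 0.20) and PCDH10 (4.17 ± 0.12). The last read 6.16 and 6.41 at 24 h and 10.45 and 10.47 at 48 h. Of 35 axon guidance genes, 10 were higher, 1 lower and 24 not called, but 5 were lower without either A2780CP20 array. The receptor ROBO2 read 5.65 and 5.72 at 24 h and 10.54 and 10.69 at 48 h (4.93 ± 0.19), and its ligand SLIT2 went the other way, from 10.25 and 10.27 to 6.98 and 7.16 (-3.19 ± 0.12). The semaphorin receptor NRP2 (3.04 ± 0.10) and SEMA6A (2.71 ± 0.13) were higher. The share of axon guidance genes called, 31.4%, was close to that over all genes (31.0%). That of protocadherin and neural adhesion genes, 41.4%, was below that of expressed genes (43.7%).

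Of the kinase, its substrates, its subunits and the drug-binding FKBP12, 4 were not called and the complex-defining subunits were higher at 48 h. MTOR (0.23 ± 0.10, adjusted p = 0.132), RPS6KB1, the S6 kinase (0.20 ± 0.11), EIF4EBP1, the repressor of cap-dependent translation that mTORC1 inactivates (-0.00 ± 0.12), and FKBP1A (0.01 ± 0.11) were not called. RPTOR, the defining subunit of mTORC1, read 8.08 and 8.07 at 24 h and 8.80 and 8.85 at 48 h (0.75 ± 0.09), and RICTOR was higher by 0.57 ± 0.15. Of 31 components of mTOR and PI3K signalling, 9 were higher and 4 lower. PDCD4, a translation inhibitor that S6 kinase marks for degradation, read 7.91 and 7.89 against 10.83 and 10.91 (2.97 ± 0.10), and the adaptors PIK3R3 (1.43 ± 0.10) and IRS1 (1.27 ± 0.13) were also higher. The total of 13 was 8 without either 24 h array or without replicate 2 of 48 h, and 2 were lower without any 1 of the 4 temsirolimus arrays.

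Genes of ribosome production were lower at 48 h or not called. Of 31 genes of ribosome biogenesis, 18 were lower, none higher and 13 not called, with a median of -0.35. WDR74 read 11.72 and 11.65 at 24 h and 10.40 and 10.45 at 48 h (-1.26 ± 0.11), and RRP9 (-1.15 ± 0.14), LYAR (-1.01 ± 0.11) and RRP12 (-0.92 ± 0.09) were lower. MYC, a transcription factor that drives many of these genes, was higher: it read 10.55 and 10.56 at 24 h and 11.92 and 11.86 at 48 h (1.33 ± 0.13). Untreated A2780 read 10.63 on each array for WDR74 and 12.00 and 11.94 for MYC, beside the 48 h arrays.

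Of 26 cytosolic ribosomal protein genes, which have many processed pseudogenes and are uncertain for that reason, 11 were higher and 1 lower, with RPL22 higher by 1.46 ± 0.10 and its paralog RPL22L1 lower by -2.00 ± 0.11. The total of 12 was 6 without either 24 h array or without replicate 1 of 48 h and 7 without replicate 2 of 48 h. Translation factors had 5 higher and 9 lower of 27, with EIF4B at 0.91 ± 0.08 and EEF1A2 at -1.56 ± 0.11. That total of 14 was 5 and 7 without replicates 1 and 2 of 24 h, and 7 and 6 without replicates 1 and 2 of 48 h.

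Targets of ATF4, the factor of the amino acid and stress response, had 16 lower and 1 higher of 30, with a median of -0.37. For the same list the median of 48 h minus untreated A2780 was -0.05, with 0 members called. The cystine transporter SLC7A11 read 7.91 and 7.86 at 24 h and 5.17 and 5.43 at 48 h (-2.58 ± 0.13), and DDIT3 (-0.95 ± 0.09) and the tRNA synthetase gene CARS1 (-0.92 ± 0.09) were lower. SESN2, a leucine sensor that restrains mTORC1, was the member higher at 48 h (0.75 ± 0.11). ATF4 itself was not called. Among 27 amino acid transporters, 11 were lower and 5 higher, and the total of 16 was 10 without replicate 2 of 24 h or without replicate 1 of 48 h; SLC6A15 was lower by -2.70 ± 0.11 and the cationic transporter SLC7A2 higher by 1.54 ± 0.11.

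Genes of cell division that were called were mainly lower at 48 h, by small amounts. Of 35 genes of G2 and mitosis, 19 were lower, 2 higher and 14 not called, with a median of -0.43, and no called member reached 2-fold. The kinases NEK2 (-0.94 ± 0.09) and PLK1 (-0.93 ± 0.13), the anaphase activator CDC20 (-0.87 ± 0.10) and the kinesin KIF2C (-0.83 ± 0.10) were lower. PLK1 read 11.57 and 11.61 at 24 h, 10.67 and 10.64 at 48 h and 10.77 and 10.96 in untreated A2780. DNA replication genes had 13 lower and 1 higher of 33, among them RRM2, a subunit of ribonucleotide reductase (-0.77 ± 0.11). That total of 14 was 9 and 8 without replicates 1 and 2 of 24 h and 7 without replicate 1 of 48 h, and 2 were higher without either A2780CP20 array.

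Genes of the G1 phase and p53 targets were more often called higher than lower. Of 29 G1 cyclins, inhibitors and their partners, 13 were higher and 6 lower: CDK6 (2.06 ± 0.15), CCNG2 (1.65 ± 0.11), MXD4, an antagonist of MYC (1.35 ± 0.11), and CCND1, cyclin D1 (0.89 ± 0.09). CDK6 and CCND1 promote the cycle, so the list is not of 1 kind. Of 24 targets of p53, 14 were higher, 4 lower and 6 not called, with a median of 0.47, and 9 were higher without replicate 1 of 24 h or of 48 h. TP53INP1 (1.92 ± 0.19), TP53I3 (1.78 ± 0.10) and SESN1 (1.09 ± 0.10) were higher, CDKN1A, the inhibitor p21, was higher by 0.29 ± 0.09 (adjusted p = 0.0373), and the apoptosis gene PMAIP1 (-1.76 ± 0.10) and ZMAT3 (-1.32 ± 0.09) were lower. MDM2 was not called. The median of 48 h minus untreated A2780 was -0.01 for the p53 targets and 0.01 for the G1 list, with 0 members called in either.

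**Figure D5:**
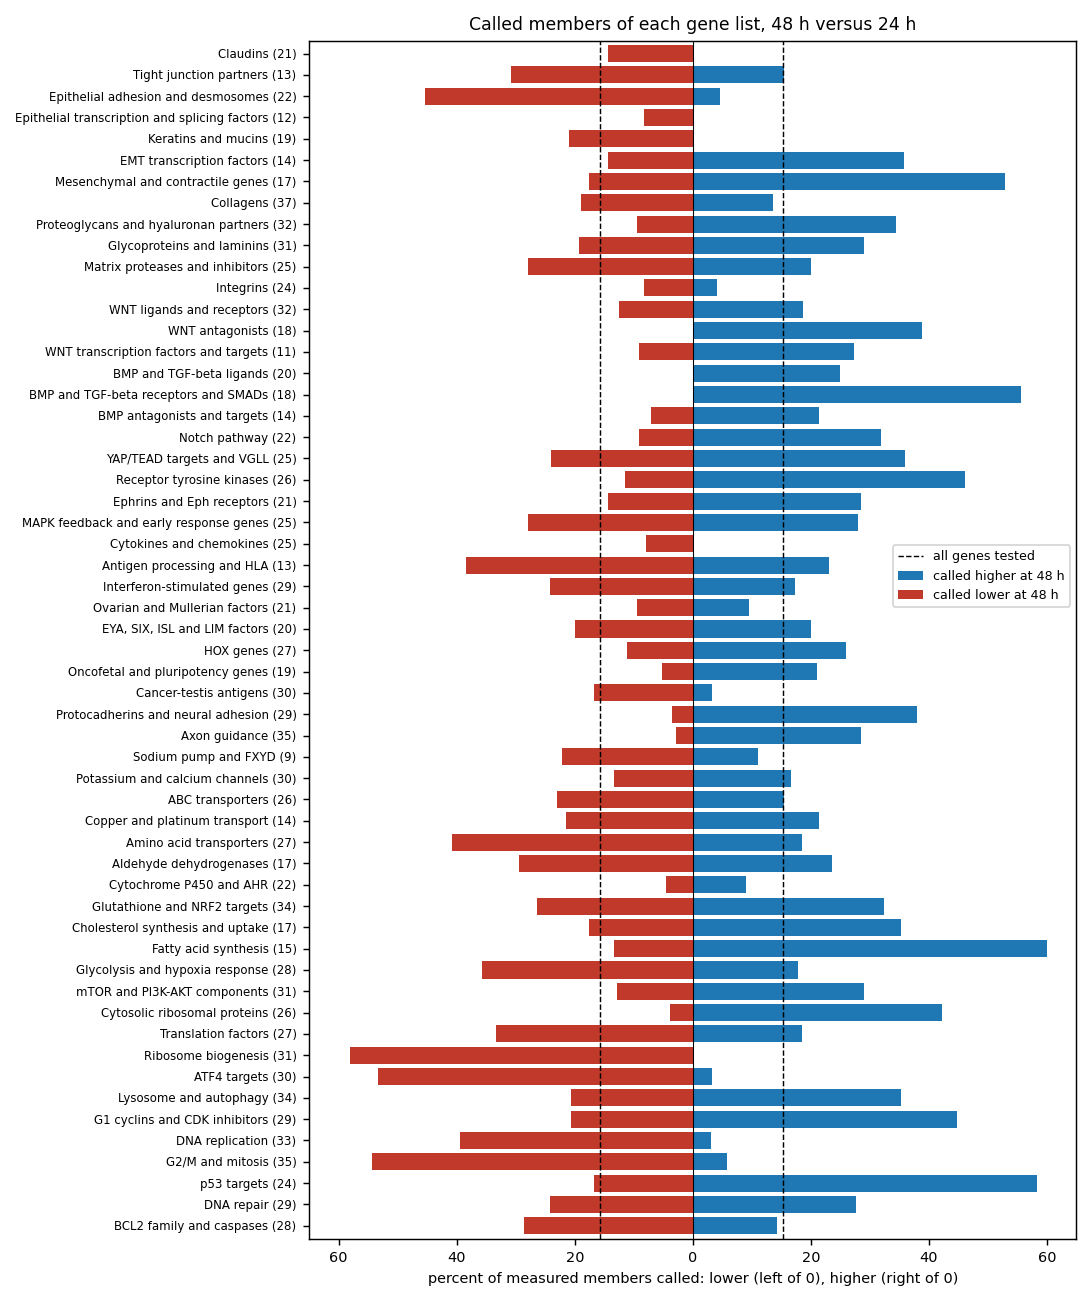
Percent of measured members of each gene list called higher (blue, right) and lower (red, left) at 48 h against 24 h, with the number measured in brackets and dashed lines at the percentages over all genes (15.2% higher, 15.7% lower). Ribosome biogenesis (18 of 31), ATF4 targets (16 of 30) and mitosis (19 of 35) reach far to the left, and fatty acid synthesis (9 of 15), p53 targets (14 of 24) and receptors and SMADs (10 of 18) far to the right.

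Genes of fatty acid synthesis were more often higher at 48 h than lower, and those of cholesterol synthesis were split. Of 15 genes of fatty acid synthesis, 9 were higher and 2 lower, with a median of 0.49. For these 15 genes the median of 48 h minus untreated A2780 was 0.10, with 0 called. The elongase ELOVL6 read 9.28 and 9.20 at 24 h and 10.49 and 10.66 at 48 h (1.33 ± 0.11), and FASN, the fatty acid synthase, was higher by 0.93 ± 0.11. Malic enzyme, ME1 (-1.37 ± 0.09), and the desaturase FADS2 (-1.26 ± 0.13) were lower. Cholesterol genes had 6 higher and 3 lower of 17, with HMGCS1 at 0.91 ± 0.10 and SREBF2 at 0.73 ± 0.09, and their total of 9 was 5 without any 1 of the 4 temsirolimus arrays.

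Detoxification and transport genes were split. The share of ABC transporters called, 38.5%, lay between those of all genes (31.0%) and of expressed genes (43.7%). Of 34 glutathione and NRF2 genes, 11 were higher, including the uncertain AKR1C genes, and 9 lower, including the microsomal transferase MGST1 (-2.83 ± 0.13). Of 26 ABC transporters, 4 were higher and 6 lower (3 without any 1 of the 4 temsirolimus arrays): the cholesterol exporter ABCA1 was higher by 2.52 ± 0.11 and ABCB1, the multidrug efflux pump, read 8.31 and 8.05 at 24 h against 4.67 and 4.63 at 48 h (-3.53 ± 0.12). Of 17 aldehyde dehydrogenases, 4 were higher and 5 lower (3 without replicate 1 of 24 h or replicate 2 of 48 h), with ALDH2 higher by 3.06 ± 0.09 and ALDH1A1 lower by -3.01 ± 0.14. The copper transporting ATPases ATP7B (1.33 ± 0.14) and ATP7A (0.71 ± 0.18) were higher, in a list of 14 with 3 called each way that had 3 in all without replicate 1 of 24 h and 5 lower without either A2780CP20 array.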

How the data were processed

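The authors deposited 1 table of log2 intensities for 33297 probe sets on 8 Affymetrix Human Gene 1.0 ST arrays. The submitters' processing notes name Partek. The background correction and normalization are not stated in the labels, nor is the base of the logarithm, which was read as 2 from the range of the values, 1.8 to 14.99. Arrays have no read depth, so their number (2 per group) limits the precision.

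Probe sets with 1 gene symbol (19460) were kept; 1754 had several and 12083 none. For a gene with several probe sets, the one with the highest mean was used (769 genes), leaving 18417 genes. Symbols were updated through RefSeq GRCh38.p14, where 18389 matched. Groups came from the titles.

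limma 3.58.1 in R 4.3.3 fitted 1 coefficient per group to all 8 arrays (4 residual degrees of freedom) with lmFit and eBayes. The contrast was 48 h minus 24 h, with Benjamini-Hochberg adjustment over all genes. The script was tested on simulated data. Named genes were the 15 largest called differences without overlap in each direction, up to 4 called members per list, a set of mTOR and BMP genes, and members of runs of neighbours. The members and lists were chosen with earlier results of these data known. Alternatives were quantile normalization, median centring, a filter on dim genes, other treatments of probe sets, other priors, only the 4 temsirolimus arrays, the replicate number as a block, and each array left out in turn.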

Additional observations from a re-analysis of the deposited data

How the results depend on the processing

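Of 316 genes followed, 286 were called and 20 of these lost the call under some alternative, none of them among the 217 called at least 2-fold apart, and none reversed. With 1 array left out, the number called ranged from 3715 to 7154 and the number lower at 48 h from 1802 to 3747. Without any 1 of the 4 temsirolimus arrays it was 3838 or less, and without either A2780CP20 array 7154. The followed genes were mostly chosen for large called differences, so their stability says little about the other called genes. Of all 5702 genes called, 5233 were also called after quantile normalization and 4608 when every probe set was fitted. Median centring gave 2693 higher and 3088 lower. Same-numbered arrays deviated from their group means with correlations of 0.00202 (24 h and 48 h) to 0.181 (A2780CP20 and 48 h); 3 of the 6 pairs of groups exceeded 0.1 and 3 did not, so the numbers were not taken as pairing, and the fit with the replicate block called 5885 genes. Counts of called members moved by over 1.5 times in 24 of the 61 lists. In alternatives for chromosome 13 chosen after seeing the data, its departure was 0.42 with the mean of the probe sets and 0.5 over genes at or above the upper quartile. The causes of these shifts were not tested. With 2 arrays per group and unknown signal over background, small and dim differences are the least certain.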

Other observations

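Immune genes were split between the times. IFIH1, a sensor of double-stranded RNA that lies beside FAP, read 5.87 and 5.55 at 24 h and 10.35 and 10.52 at 48 h, a difference of 4.72 ± 0.12, and IFIT1, an interferon-induced inhibitor of viral translation, was higher by 1.44 ± 0.08. USP18, which dampens interferon receptor signalling, was lower by -1.96 ± 0.09. Of 29 interferon-stimulated genes, 5 were higher and 7 lower (41.4% called, against 43.7% of expressed genes). Of 13 genes of antigen processing, 3 were higher and 5 lower, among them the immunoproteasome subunit PSMB9 (-1.75 ± 0.10) and the peptide transporter TAP1 (-1.47 ± 0.10). Of 25 cytokine genes, CXCL1 (-2.38 ± 0.12) and LIF (-2.02 ± 0.13) were called, both lower.

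In energy metabolism, 5 of 28 genes of glycolysis and the hypoxia response were higher and 10 lower (6 lower without replicate 1 of 24 h or replicate 2 of 48 h, 5 without replicate 2 of 24 h). The neuronal enolase gene ENO2 read 9.81 and 10.0 at 24 h and 6.30 and 6.07 at 48 h (-3.72 ± 0.13), while the glucose transporter gene SLC2A3 (1.81 ± 0.12) and TXNIP, a brake on glucose uptake (1.23 ± 0.12), were higher. Among developmental regulators, LIN28A, an inhibitor of let-7 maturation, read 6.24 and 6.23 against 9.81 and 9.76 (3.55 ± 0.10), and MEIS2, a homeobox cofactor, was higher by 2.65 ± 0.12. In these genes, named for large called differences, the 24 h arrays did not overlap the 48 h arrays, as for 69.3% of all genes.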
